A study of Mus musculus with 7 samples.

Results

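Transcripts of 10 genes of the MHC class I antigen presentation pathway (B2m, H2-K1, H2-D1, Tap1, Tap2, Tapbp, Psmb8, Psmb9, Psmb10 and Nlrc5) were followed in basal cells of the lactating mouse mammary gland. The genes were chosen by symbol, as the classical heavy chains, their partner chain, the peptide transporter and its bridge, the catalytic immunoproteasome subunits and the class I transactivator. The rule uses measured values only to choose among several rows of a symbol, and each member had a single row. The list was, however, drawn up with earlier results of these data known. All 10 were found among the 56440 features of the table and all 10 were among the 16889 genes tested. For 9 the gene symbol stood alone or first. Nlrc5 shares its feature with a microRNA listed before it (Mir7072), and was counted as the tenth. In the a3a6KO group 1 library of 3 carried much more of the class I chains than any other library, and the remaining a3a6KO libraries lay within the control range for those chains.

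RNA was sequenced from basal cells sorted by flow cytometry from fresh glands on day 2 of lactation. Basal cells include the contractile myoepithelial cells that lie between the milk-producing luminal cells and the basement membrane. The 3 a3a6KO samples carry a name for integrin subunits α3 and α6, which help form receptors for laminin, and their titles mark them as Blg positive. The 4 Ctrl samples are marked Blg negative, and the submitters describe the samples of both groups as biological replicates. Blg is understood here, from general knowledge of the study, as a transgene in which the beta-lactoglobulin promoter drives Cre recombinase in luminal cells to remove both subunits there, so that the question for basal cells is how they differ beside a mutant luminal layer. Blg was present in every a3a6KO library and in no Ctrl library, so its presence and the integrin loss cannot be told apart. The sources used here do not give strain, H2 haplotype, litter, batch or sorting gates.

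MHC class I molecules are present on most nucleated cells and display short peptides of the cell's own proteins to CD8 T cells. The proteasome cuts proteins, TAP1 and TAP2 carry the peptides into the endoplasmic reticulum, tapasin (Tapbp) holds the empty class I molecule next to the transporter, and the loaded heavy chain travels to the surface with β2-microglobulin (B2m). Interferons raise most of these genes through STAT and IRF factors, and NLRC5 acts at the conserved SXY module of their promoters.

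Recovered reads per library ran from 9368418 to 18454773 in a3a6KO and from 14480615 to 21548279 in Ctrl. Values are normalised read counts, the authors' counts divided by a size factor for each library, with no correction for gene length. The transcripts of the named targets were near the same level in both groups of basal cells, with a log2 fold change of 0.07 for Itga3 and −0.10 for Itga6. Basal markers were high in every library: the 10 genes summed to between 959589 and 1076340 in a3a6KO and between 859835 and 1161530 in Ctrl. Acta2 alone, at 546497 to 673537 in a3a6KO and 460944 to 727845 in Ctrl, made up the larger part of each sum. Of the 10 genes, 3 had a log2 fold change above 0 and 7 below, with a median of −0.07. RNA of other cells was also present. Luminal markers summed to between 104063 and 364685 in a3a6KO and between 136084 and 823920 in Ctrl. In bulk RNA, a different number of cells of a type and a different amount of RNA per cell cannot be told apart.

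The promoters of the 3 genes that differed most in a single library, and that of Tap1, are shown because each carries some of the elements by which class I genes are known to be controlled. The sequences are the 250 bases upstream of the annotated start in RefSeq (GRCm38.p6), 5′ to 3′ on the gene's strand, for B2m (chr2:122147437-122147686, plus strand), H2-K1 (chr17:34000334-34000583, minus strand), H2-D1 (chr17:35262844-35263093, plus strand) and Tap1 (chr17:34187306-34187555, plus strand). Capitals mark exact matches, on either strand, to the letters AANNGAAA (core of an IRF element), GGGATTCCC (NF-kB), CCAAT (NF-Y), TGACG (half-site of a CRE) or TTCNNNGAA (GAS).
B2m: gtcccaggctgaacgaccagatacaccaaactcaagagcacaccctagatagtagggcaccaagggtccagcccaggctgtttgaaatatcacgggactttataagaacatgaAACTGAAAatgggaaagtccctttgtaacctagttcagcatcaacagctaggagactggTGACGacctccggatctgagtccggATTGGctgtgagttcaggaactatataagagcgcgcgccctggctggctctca
H2-K1: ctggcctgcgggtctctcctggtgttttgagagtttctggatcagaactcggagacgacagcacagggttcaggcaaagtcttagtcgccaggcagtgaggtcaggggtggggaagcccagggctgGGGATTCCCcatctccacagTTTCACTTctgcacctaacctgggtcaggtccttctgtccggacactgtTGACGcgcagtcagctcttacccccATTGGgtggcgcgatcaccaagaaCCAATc
H2-D1: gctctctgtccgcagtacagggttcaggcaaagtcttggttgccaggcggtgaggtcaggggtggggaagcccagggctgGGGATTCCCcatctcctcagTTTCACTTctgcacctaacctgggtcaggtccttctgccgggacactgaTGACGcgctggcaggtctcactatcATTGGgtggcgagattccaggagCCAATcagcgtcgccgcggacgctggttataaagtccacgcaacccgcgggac
Tap1: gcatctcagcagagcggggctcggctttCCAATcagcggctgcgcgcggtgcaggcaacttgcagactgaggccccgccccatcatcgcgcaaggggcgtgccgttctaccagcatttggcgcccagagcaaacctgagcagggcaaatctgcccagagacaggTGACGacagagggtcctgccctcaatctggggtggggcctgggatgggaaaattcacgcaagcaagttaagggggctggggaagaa

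The H2-K1 and H2-D1 windows hold the same elements in the same order: NF-kB, IRF, CRE half-site and a pair of NF-Y boxes. Counted from the first base of the NF-kB letters, the IRF core began 20 bases on, the CRE half-site 69 bases on and the first NF-Y box 94 bases on in both genes, and the second NF-Y box 118 bases on in H2-K1 and 117 in H2-D1. The block sits further from the annotated start in H2-D1 (NF-kB at −170, counted upstream from the start) than in H2-K1 (−124). B2m had an IRF core at −137, a CRE half-site at −78 and an NF-Y box at −53, in that order. Tap1 had only an NF-Y box at −222 and a CRE half-site at −86, which is the reverse order for this pair. Promoters were in the table for 8 of the 10 genes, Tap2 and Nlrc5 being those without an entry. The IRF core was in 3 of the 8 windows and in 21.3% of all 32851 windows of the table. The NF-kB letters were in 2 of the 8 and in 0.301% of all windows, CCAAT in 6 and 33.8%, TGACG in 5 and 17.8%, and the GAS letters in 1 (Psmb8) and 7.02%. The Psmb10 window held no match to any of these letters. Tap1 and Psmb9 are read in opposite directions from starts 226 bases apart, so that their windows share 225 bases, and the NF-Y box and CRE half-site of the Tap1 window are also those of Psmb9. A match of letters is a description and does not show that a factor was bound.

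No member passed the adjusted threshold of 0.05 in the comparison of all genes with limma (0 of 10), and neither did any other gene tested (0.0% of 16889). At an unadjusted p under 0.05, 4 of 10 members were higher in a3a6KO (Tap1, Tapbp, Psmb8 and Psmb10), where 3.55% of all genes were higher at that level, and 0 were lower, where 2.78% of all genes were (6.32% in either direction). The log2 fold change, a3a6KO minus Ctrl on log2(value + 1), was above 0 for 10 of 10 members, against 49.5% of all genes. The members' median log2 fold change was 0.42, with a range of 0.15 to 0.59, and the median of all genes tested was −0.0040. Without a3a6KO replicate 1 it was 0.057, with a range of −0.22 to 0.34, and 6 of 10 members were above 0, against 50.4% of all genes. The groups did not overlap, with a3a6KO higher, for 1 of 10 members and for 4.0% of all genes, and with a3a6KO lower for 0 of 10 members and for 3.51% of all genes. The count tests on recovered reads gave no adjusted call among the members either: edgeR called 0 genes in all (0.0%) and DESeq2 77 (0.456%), of which 0 were members. At an unadjusted p under 0.05, edgeR had 3 members and 6.07% of all genes, and DESeq2 4 members and 6.69% of all genes.

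**Figure D1:**
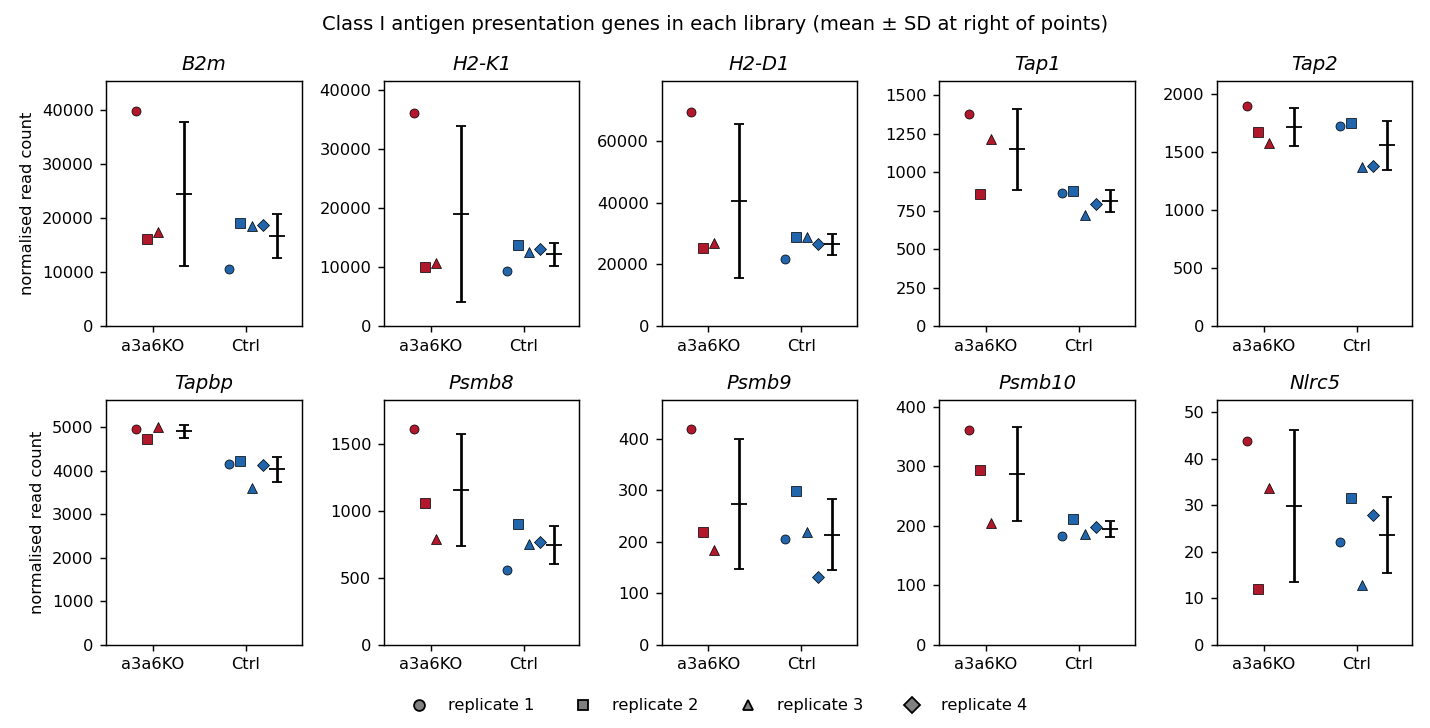
Normalised read count of each of the 10 members (y axis, starting at 0, scaled for each gene) in the 3 a3a6KO and 4 Ctrl libraries; marker shapes give the replicate and the bar beside the points is mean ± SD. The circle of a3a6KO replicate 1 lies far above all other libraries for B2m, H2-K1 and H2-D1, while for Tapbp the 3 a3a6KO libraries lie together above the 4 Ctrl libraries.

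The peptide-presenting chains were the most abundant members, and they were set apart by a single library. B2m (GSMG0021687, chromosome 2, 122147685 to 122153083, plus strand, mm10), the light chain that every classical class I molecule needs to reach the surface, had 39808, 16100 and 17374 normalised reads in a3a6KO replicates 1 to 3, against 10552, 19006, 18582 and 18693 in Ctrl replicates 1 to 4. The a3a6KO replicate 1 value was 2.09 times the highest other library, and the remaining a3a6KO values lay between the lowest and the highest Ctrl value. Means were 24427 ± 13336 in a3a6KO (SD, n = 3) and 16708 ± 4108 in Ctrl (SD, n = 4). The log2 fold change was 0.46 (SE 0.34, 95% interval −0.32 to 1.24, limma adjusted p = 0.840), and 0.04 without a3a6KO replicate 1 (limma adjusted p = 0.982).

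H2-K1 (GSMG0017418, chromosome 17, 33996013 to 34000334, minus strand), a classical heavy chain that binds the peptide, had 36087, 9917 and 10656 normalised reads in a3a6KO and 9296, 13695, 12492 and 13068 in Ctrl. Replicate 1 of a3a6KO stood 2.64 times above the highest other library, whereas replicates 2 and 3 were below 3 of the 4 Ctrl libraries. The log2 fold change was 0.38 (SE 0.41, 95% interval −0.55 to 1.31, limma adjusted p = 0.889) and −0.22 without a3a6KO replicate 1. H2-D1 (GSMG0016589, chromosome 17, 35263026 to 35267497, plus strand), the other classical heavy chain, had 69639, 25301 and 26905 normalised reads in a3a6KO and 21648, 29011, 28846 and 26743 in Ctrl. The same library was high, at 2.62 times the Ctrl mean, and a3a6KO replicates 2 and 3 fell inside the Ctrl range. The log2 fold change was 0.46 (SE 0.34, 95% interval −0.31 to 1.22, limma adjusted p = 0.840) and −0.016 without a3a6KO replicate 1. Heavy chain genes are near copies of each other, and reads may be split between them: 8.79% of the 50-base stretches of the H2-K1 transcript and 14.3% of those of H2-D1 also occur in transcripts of other genes (GENCODE M21).

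Of the paired transporter genes, Tap1 differed more than Tap2, though neither passed the adjusted threshold. Tap1 (GSMG0016541, chromosome 17, 34187552 to 34197225, plus strand), encoding a chain of the transporter, had 1374, 858 and 1212 normalised reads in a3a6KO and 866, 875, 718 and 794 in Ctrl. Replicates 1 and 3 of a3a6KO were above every Ctrl library and replicate 2 was among them. Means were 1148 ± 263 in a3a6KO (SD, n = 3) and 813 ± 73.0 in Ctrl (SD, n = 4). The log2 fold change was 0.47 (SE 0.18, 95% interval 0.08 to 0.87, limma adjusted p = 0.721), and 0.33 without a3a6KO replicate 1. Tap2 (GSMG0016543, chromosome 17, 34204214 to 34216321, plus strand), the partner chain, had 1896, 1673 and 1583 normalised reads in a3a6KO and 1725, 1755, 1373 and 1382 in Ctrl. The groups overlapped, and the log2 fold change was 0.15 (SE 0.14, limma adjusted p = 0.875), or 0.072 without a3a6KO replicate 1 and 0.088 without Ctrl replicate 3.

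Tapbp (GSMG0016530, chromosome 17, 33919478 to 33929291, plus strand), which encodes tapasin, was the 1 member whose groups did not overlap. It had 4961, 4739 and 5019 normalised reads in a3a6KO and 4155, 4232, 3596 and 4139 in Ctrl. All 3 a3a6KO libraries were above all 4 Ctrl libraries, and replicate 3, not replicate 1, was the highest. The means were 4906 ± 148 in a3a6KO (SD, n = 3) and 4030 ± 292 in Ctrl (SD, n = 4), and the log2 fold change of 0.29 (SE 0.12, 95% interval 0.02 to 0.55, limma adjusted p = 0.750) was 0.28 without a3a6KO replicate 1. Its relative Tapbpl, a peptide editor outside the member list, was picked for the smallest limma p among 9 genes for peptide trimming and loading. It had 507, 480 and 569 normalised reads in a3a6KO and 411, 400, 366 and 399 in Ctrl (log2 fold change 0.39, SE 0.13, limma adjusted p = 0.673). Its groups did not overlap either, a layout with a3a6KO higher that 4.0% of all genes had.

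The immunoproteasome is a form of the proteasome in which 3 catalytic subunits are exchanged for interferon-inducible ones. Psmb8 (GSMG0016542, chromosome 17, 34198195 to 34201454, plus strand), which takes the place of Psmb5, had 1616, 1061 and 794 normalised reads in a3a6KO and 558, 900, 755 and 769 in Ctrl. Replicates 1 and 2 of a3a6KO were above the Ctrl libraries and replicate 3 was within them. Its log2 fold change was the highest of the members, 0.59 (SE 0.25, 95% interval 0.03 to 1.16, limma adjusted p = 0.768), and was 0.32 without a3a6KO replicate 1. Psmb9 (GSMG0017423, chromosome 17, 34181988 to 34187375, minus strand), which takes the place of Psmb6, had 418, 219 and 183 normalised reads in a3a6KO and 205, 298, 219 and 131 in Ctrl. Only a3a6KO replicate 1 lay outside the Ctrl range, and the log2 fold change was 0.32 (SE 0.34, limma adjusted p = 0.887), or −0.031 without that library. Psmb10 (GSMG0038858, chromosome 8, 105935728 to 105938392, minus strand), which takes the place of Psmb7, had 362, 294 and 205 normalised reads in a3a6KO and 183, 212, 186 and 197 in Ctrl. Replicates 1 and 2 of a3a6KO were above Ctrl and replicate 3 was within it, with a log2 fold change of 0.52 (SE 0.20, 95% interval 0.06 to 0.99, limma adjusted p = 0.738) and 0.34 without a3a6KO replicate 1.

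Nlrc5 (GSMG0037642, chromosome 8, 94472763 to 94527272, plus strand), which encodes the transactivator of class I genes, was barely detected. It had 43.9, 11.9 and 33.8 normalised reads in a3a6KO and 22.1, 31.5, 12.9 and 28.0 in Ctrl, and its recovered reads ran from 9 to 53 per library. Replicates 1 and 3 of a3a6KO were above every Ctrl library and replicate 2 was below them all, and the log2 fold change was 0.21 (SE 0.50, 95% interval −0.93 to 1.36, limma adjusted p = 0.946). This feature begins downstream of the RefSeq start of the gene. An unnamed feature over that start (GSMG0037641, looked up after the values were seen) had 132, 47.5 and 90.7 normalised reads in a3a6KO and 112, 124, 39.5 and 103 in Ctrl. Of these, a3a6KO replicate 1 was again the highest, and a3a6KO replicates 2 and 3 lay within the Ctrl range.

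Per kilobase of exon, which allows genes to be set against each other, the 3 chains of the class I molecule stood at the top and the transactivator at the bottom. B2m had 28404 ± 15506 normalised reads per kilobase in a3a6KO and 19428 ± 4777 in Ctrl, H2-D1 had 19322 ± 11964 in a3a6KO and 12637 ± 1634 in Ctrl, and H2-K1 had 11412 ± 9003 in a3a6KO and 7334 ± 1182 in Ctrl (SD, n = 3 and 4). Tapbp came next with 1693 ± 51.0 per kilobase in a3a6KO and 1391 ± 100.9 in Ctrl. Below it in Ctrl were Psmb8 (458 ± 86.6), Tap2 (453 ± 60.9), Tap1 (275 ± 24.7), Psmb9 (158 ± 50.7) and Psmb10 (148 ± 9.92). Nlrc5 was last with 3.68 ± 2.02 per kilobase in a3a6KO and 2.91 ± 1.0 in Ctrl. Among the Ctrl libraries, B2m and H2-D1, Psmb8 and Tap2, and Psmb9 and Psmb10 were neighbours whose ranges overlapped, and the other neighbours did not overlap.

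The members differed among themselves in how much of the difference came from 1 library. Replicate 1 of a3a6KO was the highest of the 7 libraries for 9 of 10 members, against 11.6% of all genes tested. It was at least 1.5 times the next library for 4 of 10 members (B2m, H2-K1, H2-D1 and Psmb8), against 0.693% of all genes, a size chosen after the values were seen. Among the 10051 genes with a mean of at least 100, 33 met that size in a3a6KO replicate 1, 13 in replicate 2 and 362 in replicate 3, and 68, 18, 48 and 27 in Ctrl replicates 1 to 4, and no member did so in any library other than a3a6KO replicate 1. The members' mean log2 level was 11.35, 10.43 and 10.53 in a3a6KO and 10.23, 10.62, 10.30 and 10.38 in Ctrl. Replicate 1 of a3a6KO stood highest, and replicates 2 and 3 lay below Ctrl replicate 2 and above the other 3 Ctrl libraries.

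**Figure D2:**
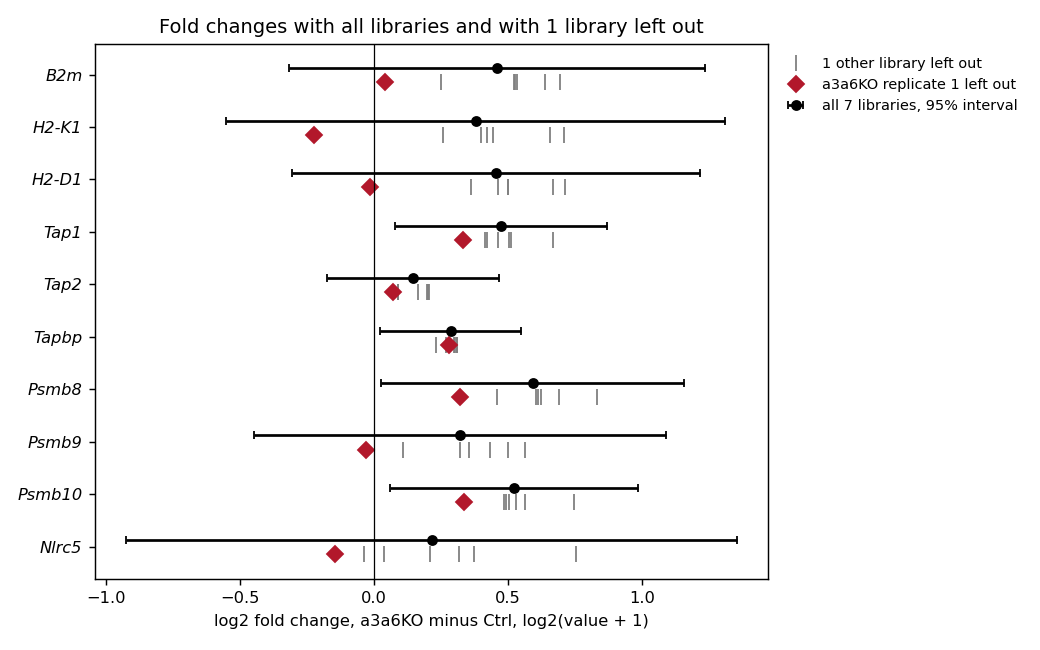
Log2 fold change of each member, a3a6KO minus Ctrl on log2(value + 1), with all 7 libraries (black points, 95% limma interval), without a3a6KO replicate 1 (red diamonds) and without each other library (grey marks). Without a3a6KO replicate 1, H2-K1, H2-D1, Psmb9 and Nlrc5 lie below 0, whereas Tapbp moves only to 0.28.

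Ratios within a library do not depend on the scaling between libraries, and 5 such ratios were compared. The log2 ratio of Psmb8 to Psmb5, the inducible over the constitutive subunit, was 0.47, −0.79 and −0.26 in a3a6KO and −0.37, −0.40, −0.42 and −0.41 in Ctrl. The 4 Ctrl libraries were almost identical (SD 0.020), and the a3a6KO libraries lay on both sides of them (SD 0.64). Psmb5 itself had 1162, 1837 and 954 normalised reads in a3a6KO and 722, 1186, 1008 and 1021 in Ctrl. In a3a6KO replicate 2, where the ratio was lowest, Psmb5 was at its highest and Psmb8 was above every Ctrl library. The mean difference of 0.20 had an exact two-sided permutation p of 0.6, and the difference was −0.13 without a3a6KO replicate 1. Psmb10 to Psmb7 was −1.74, −2.14 and −2.84 in a3a6KO and −2.61, −2.53, −2.75 and −2.81 in Ctrl, a difference of 0.44 (exact permutation p = 0.2), which was 0.19 with a3a6KO replicate 1 left out and 0.74 with replicate 3 left out. Psmb9 to Psmb6 was −3.36, −4.30 and −4.51 in a3a6KO and −3.99, −3.40, −4.08 and −4.79 in Ctrl, a difference of 0.0075 (exact permutation p = 0.971).

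H2-K1 to H2-D1 was −0.95, −1.35 and −1.34 in a3a6KO and −1.22, −1.08, −1.21 and −1.03 in Ctrl on the log2 scale. In a3a6KO replicate 1 both heavy chains were high and H2-K1 more so, giving the highest ratio of the 7, while a3a6KO replicates 2 and 3 had the lowest. The difference of −0.08 had an exact permutation p of 0.571. Tap1 to Tap2 was −0.46, −0.96 and −0.39 in a3a6KO and −0.99, −1.003, −0.93 and −0.80 in Ctrl, with replicates 1 and 3 of a3a6KO above every Ctrl library. Its difference of 0.33 had an exact permutation p of 0.114. Over the 5 ratios the Benjamini-Hochberg adjusted p of these exact permutation tests ran from 0.5 to 0.971. With 35 ways to assign the 7 libraries to groups of 3 and 4, the smallest possible p is 0.0286, and a single ratio at that value would have an adjusted p of 0.143.

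**Figure D3:**
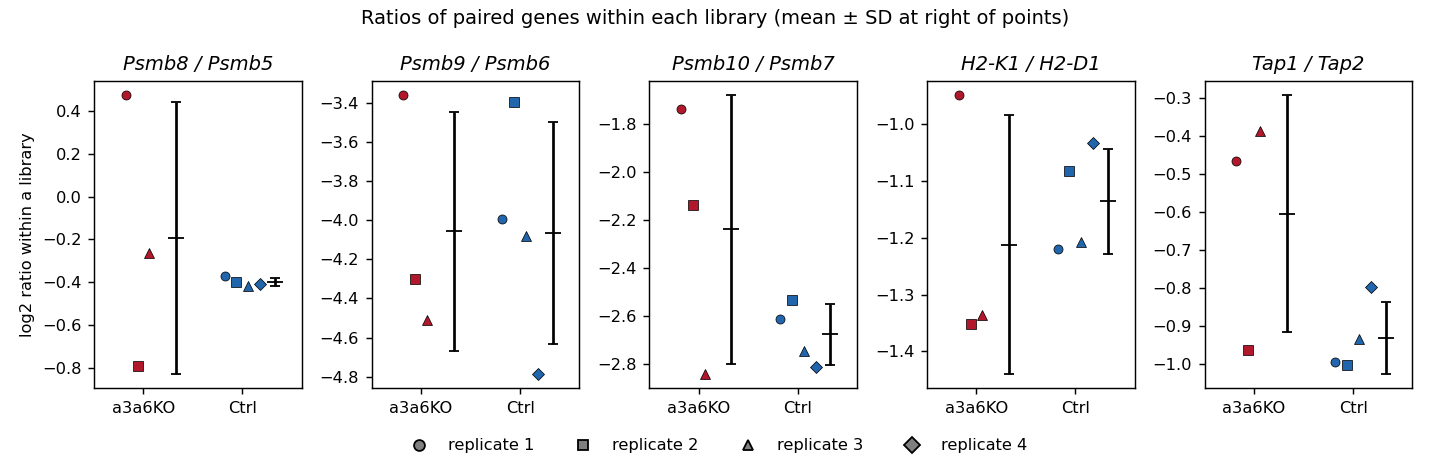
Log2 ratio of 5 pairs of genes within each library (y axes differ and do not start at 0), for the 3 a3a6KO and 4 Ctrl libraries, with mean ± SD beside the points. The 4 Ctrl libraries have nearly the same Psmb8 to Psmb5 ratio, with an SD of 0.020, while the a3a6KO libraries spread over both sides of it with an SD of 0.64.

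Of the 26 other class I genes listed, 19 had a row under their own symbol and 15 of those were tested. Another 3 (H2-Q6, H2-T10 and H2-T22) stand in features that name a second gene and are described with the features most like the members. Of the 15 tested, 12 had a log2 fold change above 0 and 3 below 0, with a median of 0.29, and 0.10 without a3a6KO replicate 1. None passed the adjusted limma threshold (0 of 15), and 0 had an unadjusted p under 0.05. Replicate 1 of a3a6KO was the highest library for 6 of the 15, against 11.6% of all genes tested. Over all genes tested, 49.5% had a log2 fold change above 0, the share to set beside the count of each list. H2-Q5 had 91.1, 35.6 and 42.7 normalised reads in a3a6KO and 17.1 to 39.6 in Ctrl (log2 fold change 0.91, limma adjusted p = 0.785). H2-T23, which encodes the non-classical molecule Qa-1, had a log2 fold change of 0.29, and Cd1d1, which presents lipids, of 0.46. Mr1, which presents vitamin metabolites, lay the other way with 128, 136 and 167 normalised reads in a3a6KO and 247, 224, 151 and 187 in Ctrl (log2 fold change −0.48, limma adjusted p = 0.785). H2-Q7, which encodes a Qa-2 chain and was picked after its values were seen, had 2401 normalised reads in a3a6KO replicate 1, 384 and 375 in replicates 2 and 3, and 287 to 418 in the Ctrl libraries. It stood 5.75 times above the highest other library.

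Most members lie in the MHC on chromosome 17, and the genes of that stretch were compared by library. Between Tapbp and H2-Q10 (33919478 to 35474563), 59 named genes had a mean of at least 50. They comprised 7 members, 5 other class I genes, 5 class II genes and 42 others. The 5 other class I genes include Ddx39b // H2-Q6, a feature that also names a gene outside class I and spans H2-D1. That feature, not counted among the 42, had 7792 normalised reads in a3a6KO replicate 1 and at most 4034 in any other library. Among those 42, a3a6KO replicate 1 was the highest library for 4 (9.52%) and at least 1.5 times the next library for 0. Their median log2 level in a3a6KO replicate 1 over the Ctrl mean was 0.03, with a range of −0.67 to 1.04, and that of all genes tested was −0.03. The highest of them was Notch4, a receptor gene of the endothelium, which in that library was above the members Psmb9 (0.97) and Tap1 (0.76) and was about as high in the other a3a6KO libraries. The 5 other class I genes were at 2.69 (H2-Q7), 1.16 (Ddx39b // H2-Q6), 0.77 (H2-Q4), −0.13 (H2-K2) and −0.66 (H2-Q10) in a3a6KO replicate 1. The 5 class II genes lay between 0.24 and 1.21 in a3a6KO replicate 1, which was the highest library for 3 of them, between −1.22 and 0.12 in replicate 2 and between −0.019 and 1.08 in replicate 3. B2m on chromosome 2 and Psmb10 and Nlrc5 on chromosome 8 lie outside this stretch. Whether chromosomal position had a part in the members' values was not tested.

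**Figure D4:**
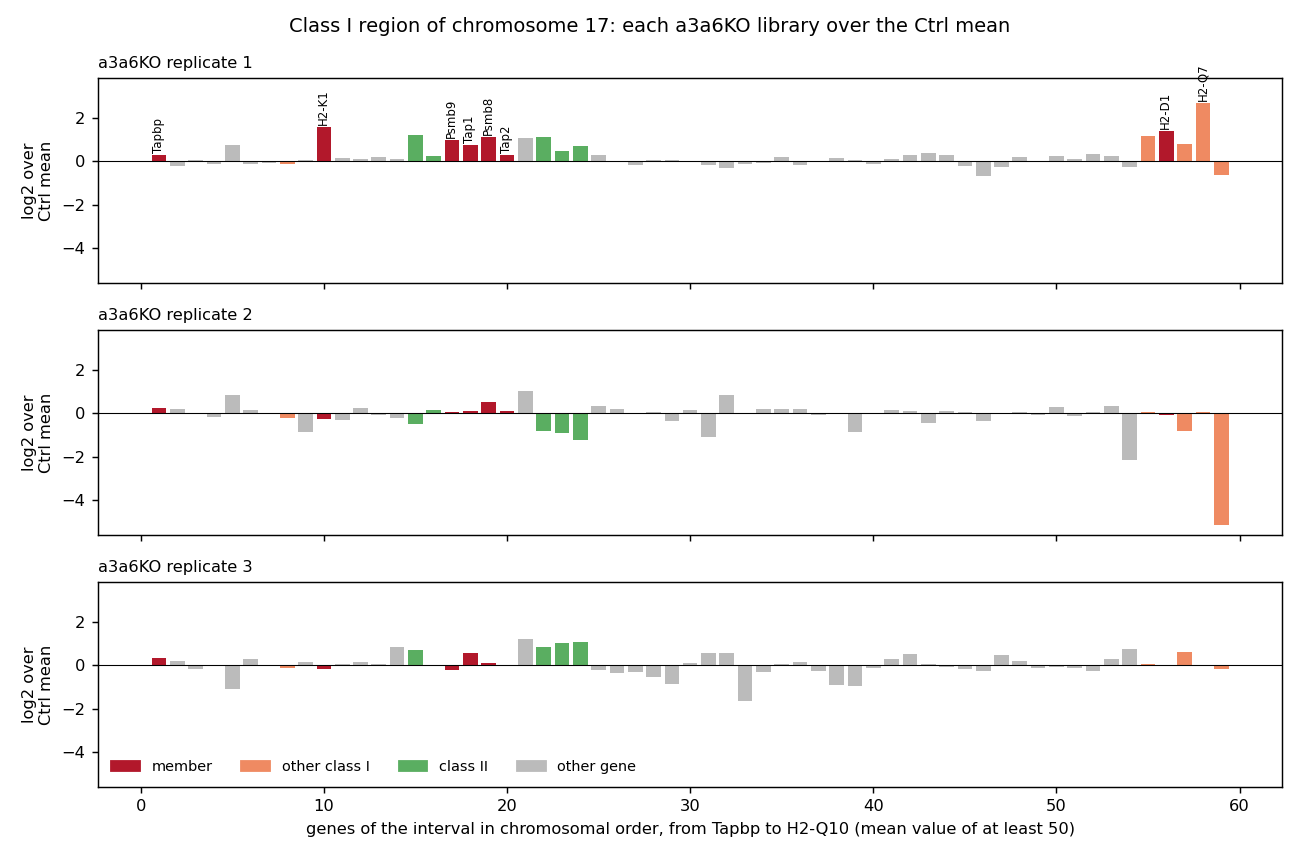
Log2 of each a3a6KO library over the Ctrl mean (y axis) for 59 genes between Tapbp and H2-Q10 in chromosomal order (x axis, rank), 1 panel per a3a6KO library; colours mark members, other class I genes, class II genes and others. In replicate 1 the class I genes H2-Q7, H2-K1 and H2-D1 have the highest bars, and H2-K2 and H2-Q10 lie below 0. Class II genes reach 1.21, and the 42 others have a median of 0.03 and reach 1.04 at the Notch4 feature.

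Of 9 genes for peptide trimming and loading, 8 had a log2 fold change above 0 and 1 below, with a median of 0.17, and 0 passed the adjusted limma threshold. Among them, the chaperones Calr and Pdia3 had log2 fold changes of 0.37 and 0.25 and overlapped between groups. Of the 18 constitutive proteasome and activator genes, 14 were above 0 and 4 below, with a median of 0.06, and again 0 passed. Psmb6, a catalytic subunit of the constitutive proteasome, had 4305, 4338 and 4194 normalised reads in a3a6KO and 3275, 3152, 3730 and 3639 in Ctrl. Its groups did not overlap (log2 fold change 0.31, limma adjusted p = 0.722).

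Among 17 transcription factors that act on class I promoters, 13 had a log2 fold change above 0 and 4 below, with a median of 0.13, and 0 passed the adjusted limma threshold. Irf9, a partner of STAT2, had 1620, 1085 and 1573 normalised reads in a3a6KO and 734, 1309, 857 and 1030 in Ctrl (log2 fold change 0.55, limma adjusted p = 0.750). Irf8, known mainly from blood cells, had 128, 88.3 and 242 normalised reads in a3a6KO and 23.1, 43.6, 48.7 and 108 in Ctrl (log2 fold change 1.52, limma adjusted p = 0.691).

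Of 11 interferon ligand, receptor and signalling genes, 9 were tested, with 7 log2 fold changes above 0 and 2 below and a median of 0.14. Again 0 passed the adjusted limma threshold. Ifngr2, a chain of the interferon gamma receptor, had 836, 666 and 883 normalised reads in a3a6KO and 571, 536, 487 and 647 in Ctrl. All 3 a3a6KO libraries were above all 4 Ctrl libraries (log2 fold change 0.50, SE 0.15, limma adjusted p = 0.634). Socs1, a feedback inhibitor of the pathway, had 430, 170 and 356 normalised reads in a3a6KO and 135, 301, 258 and 294 in Ctrl. Ifng itself was above 0 in Ctrl replicate 3 alone.

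By the rule for likeness, the features whose log2(value + 1) followed the members' mean z-score most closely over the 7 libraries, out of 10531, included Ddx39b // H2-Q6 (Pearson r = 0.972, Spearman rho = 1), Efcab14 (r = 0.958, rho = 0.714), H2-T10 // H2-T22 (r = 0.952, rho = 0.821), Gm12185 // Tgtp1 (r = 0.949, rho = 0.893), Tmem181a (r = 0.941, rho = 0.857), Brinp3 (r = 0.941, rho = 0.929) and Ly6d (r = 0.941, rho = 0.857). These were picked for likeness, so no test is given. All of those named were highest in a3a6KO replicate 1. Without that library and Ctrl replicate 3, the libraries farthest from the median, r was 0.967 for Gm12185 // Tgtp1 and 0.372 for Ly6d, and between 0.707 and 0.873 for the other 5. The Ddx39b // H2-Q6 feature (chromosome 17, 35241746 to 35430053, plus strand) spans H2-D1, and the sources used here do not say how reads in the overlap were divided. The H2-T10 // H2-T22 feature had 1568, 930 and 923 normalised reads in a3a6KO and 806, 936, 807 and 669 in Ctrl. Ly6d, a surface protein gene, had 316, 29.0 and 42.7 normalised reads in a3a6KO and 32.1, 35.5, 28.5 and 34.8 in Ctrl.

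Other cell types express class I genes too, and their markers were compared by library. The members summed to 156204, 60175 and 63964 normalised reads in a3a6KO and to 49209, 70015, 66781 and 65944 in Ctrl. Class II genes, which mark antigen-presenting cells, summed to 3897, 1358 and 4375 in a3a6KO and to 1284, 1298, 3754 and 2907 in Ctrl, and all 6 tested had a log2 fold change above 0, with a median of 0.45. The class II sum was highest in a3a6KO replicate 3, followed by a3a6KO replicate 1, Ctrl replicate 3 and Ctrl replicate 4. The part of antigen-presenting cells in the members' values was not tested. The 10 macrophage and dendritic markers summed to 577, 625 and 1309 in a3a6KO and to 328, 445, 1439 and 985 in Ctrl, with Flt3 at 0 in every library.

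The 13 lymphocyte markers summed to 26.5, 42.2 and 56.9 normalised reads in a3a6KO and to 20.1, 19.4, 35.8 and 61.3 in Ctrl, with Cd8a and Ms4a1 at 0 in every library. In a3a6KO replicate 1, Ptprc, the pan-leukocyte marker, was at 9.94, its lowest value. The 12 endothelial markers summed to 10510, 13965 and 15210 in a3a6KO and to 5126, 6389, 5647 and 8259 in Ctrl, with 12 of 12 log2 fold changes above 0 (median 1.02), 12 at an unadjusted and 0 at an adjusted limma p under 0.05, and 8 at a DESeq2 adjusted p under 0.05, and replicate 1 the lowest of the a3a6KO libraries. The 8 pericyte markers were also all above 0 (median 0.58), and the 3 tested red blood cell markers had a median of 2.13. The part of endothelial, pericyte and blood RNA in the members' values was not tested. The luminal markers had their lowest sum in a3a6KO replicate 1, at 104063. The other sums were 168928 and 364685 in a3a6KO replicates 2 and 3 and 136084 to 823920 in Ctrl. Their mean log2 level was lowest in Ctrl replicate 2 (11.08), below a3a6KO replicate 1 (11.20). The part of luminal RNA in the class I values of a3a6KO replicate 1 was not tested.

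**Figure D5:**
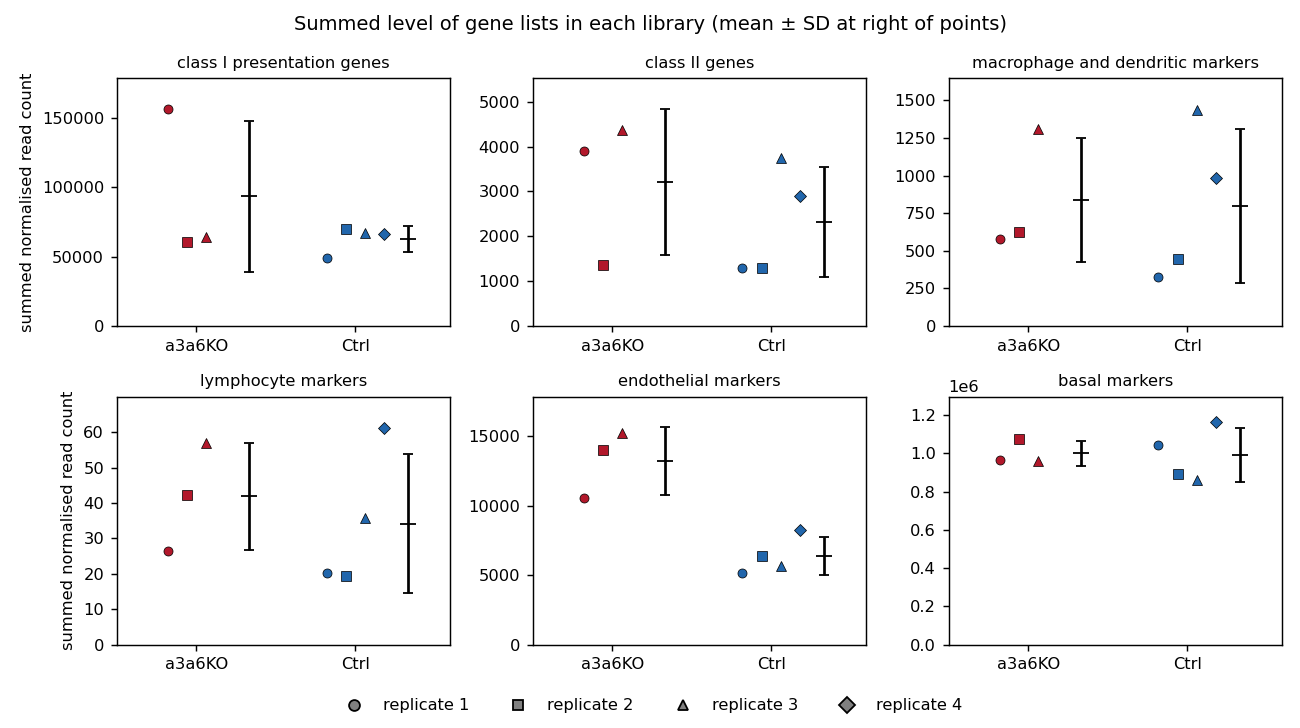
Summed normalised read counts of the class I members, class II genes and markers of other cell types (y axes start at 0) in the 3 a3a6KO and 4 Ctrl libraries, with mean ± SD beside the points. The class I sum is high in a3a6KO replicate 1 alone (156204), whereas endothelial markers are higher in all 3 a3a6KO libraries than in all 4 Ctrl libraries.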

How the data were processed

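Per the labels' protocols, RNA of FACS-sorted basal cells was turned into libraries by SMARTer v4. The 3 a3a6KO and 4 Ctrl samples were grouped by the genotype label. Replicate numbers only name libraries in deposition order.

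The deposited signal values, 1 per feature and library, are gene counts scaled by the authors with a library size factor, from the title of the file. The submitters' processing notes name DESeq2, STAR 2.4.0, FastQC, Picard and SAMtools, and build mm10. The read counter is not given in the sources used here, nor is its handling of strand or of reads that match several genes, so reads of antisense or overlapping genes cannot be separated. Every value was a whole multiple of 1 step per library, and 100% of values gave whole reads within 0.01. Even numbers made up 61.8% to 63.8% of recovered counts from 1 to 20, an excess over odd numbers that the count tests do not model.

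Genes that reached a value of 10 in 3 or more libraries (16889) were tested by limma 3.58.1 (R 4.3.3; trended empirical Bayes) on log2(value + 1), two-sided, with Benjamini-Hochberg adjustment over all of them and a threshold of 0.05. This scale understates changes of low genes. As alternatives the recovered reads were tested with the quasi-likelihood test of edgeR 4.0.16 and the Wald test of DESeq2 1.42.0, and limma was repeated with other scalings, filters, pseudocounts and weights, with no trend, and without each library in turn. Ratios were compared by exact permutation over libraries. Exon lengths and transcripts came from GENCODE M21 and promoters from RefSeq.

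The members and lists were chosen with earlier results of these data known. All members are named. From each other list the rule allows up to 4 genes of smallest p and, for cell types, the 3 of highest level, and it adds the 8 features most like the members over the libraries. Of these, 1 gene is not reported here. Where a gene outside this rule is named for its values, the text says so.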

Additional observations from a re-analysis of the deposited data

Results flagged for a closer look

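Within the Ctrl group, 5 of 85 gene and group sets examined had 1 library set apart from the other 3 by a gap that is large for the range of the group, and chance flags about 1 in 20. B2m was at 10552 normalised reads in Ctrl replicate 1, while the others were between 18582 and 19006. Tapbp was at 3596 in Ctrl replicate 3, while the others were between 4139 and 4232. The proteasome subunit gene Psma5 was at 624 in the same library, against 753 to 769 in the others, and the T cell marker Cd3e was at 1.84 there and at 0 in the others. Efcab14, picked as like the members, was at 725 in Ctrl replicate 2, against 660 to 671 in the others. The a3a6KO group, with 3 libraries, was too small for this examination.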

How the results depend on the processing

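Of 169 pairs of a member and an alternative setting, 164 kept the direction of the log2 fold change and no adjusted p passed the threshold, the values running from 0.403 to 0.994. Leaving out 1 library at a time gave ranges of −0.22 to 0.71 for H2-K1, −0.016 to 0.71 for H2-D1, −0.031 to 0.56 for Psmb9 and −0.15 to 0.75 for Nlrc5, each lowest without a3a6KO replicate 1. Nlrc5 was at −0.038 without Ctrl replicate 3. The count of genes past the adjusted threshold was 0 in every limma setting and with edgeR, and 77 with DESeq2. Without the filter on low values, 1777 genes had an unadjusted limma p under 0.05, against 1068 with it. The log2 ratio difference of Psmb8 to Psmb5 ran from −0.13 to 0.50 with 1 library left out, and that of Psmb9 to Psmb6 from −0.34 to 0.23, and the second was −0.0037 with a pseudocount of 10. Those of Psmb10 to Psmb7, Tap1 to Tap2 and H2-K1 to H2-D1 ran from 0.19 to 0.74, 0.22 to 0.51 and −0.21 to −0.0066, and the lowest adjusted p of any ratio was 0.167. Psmb8 to Psmb5 and Tap1 to Tap2 had that value without a3a6KO replicate 2. With a library left out there are fewer ways to assign libraries to groups, so no exact permutation p could pass 0.05. The cause of the shifts between settings was not tested. Leaving out Nlrc5, an alternative chosen after seeing the data because its feature also names a microRNA, gave a median log2 fold change of 0.46 for the remaining 9 members. Depth limits Nlrc5, with 9 reads in its lowest library. No paired analysis was possible because the labels carry no replicate numbers, litters or batches.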

Other observations

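The 33 genes with a mean of at least 100 normalised reads and with a3a6KO replicate 1 at least 1.5 times above every other library were looked at after their values were seen. Besides B2m, H2-K1, H2-D1 and Psmb8 they held H2-Q7 and the features Ddx39b // H2-Q6, H2-T10 // H2-T22 and Gm12185 // Tgtp1. Gm12185 // Tgtp1, which names a GTPase gene, had 2355, 616 and 701 normalised reads in a3a6KO and 339, 864, 596 and 470 in Ctrl. The guanylate-binding protein genes Gbp2 and Gbp3 and the GTPase gene Igtp were among them, as was Ifit3, with 706, 332 and 123 normalised reads in a3a6KO and 119, 381, 206 and 158 in Ctrl. For Gbp3 the values were 890, 385 and 445 in a3a6KO and 196, 523, 333 and 408 in Ctrl. Igtp had 1853, 786 and 1190 in a3a6KO and 575, 1020, 608 and 799 in Ctrl, so that a3a6KO replicate 3 was also above every Ctrl library. The feature Gm12250, also among the 33, had 333, 83.1 and 121 in a3a6KO and 59.2, 40.4, 53.2 and 60.5 in Ctrl. Its groups did not overlap (limma adjusted p = 0.582, DESeq2 adjusted p = 0.0289).

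The same 33 also held genes with other roles. Cebpb, a transcription factor of mammary and inflammatory gene programmes, had 25017, 5960 and 4526 normalised reads in a3a6KO and 6648, 9926, 14554 and 14732 in Ctrl, so that a3a6KO replicates 2 and 3 were below every Ctrl library while replicate 1 was above all of them. Tsc22d3, a glucocorticoid-induced gene, had 10958, 4834 and 4953 in a3a6KO and 5600, 4810, 6521 and 4248 in Ctrl. Bcl6, a transcriptional repressor, had 4327, 711 and 1050 in a3a6KO and 2620, 1906, 955 and 1384 in Ctrl. Madcam1, which encodes an adhesion ligand for lymphocytes, had 1126, 444 and 208 in a3a6KO and 130, 204, 192 and 244 in Ctrl.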
